A study of Rattus norvegicus with 36 samples.

Results

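Cholesterol synthesis, uptake and export, and the control of the pathway by the transcription factor SREBP2, were followed in rat liver through a list of 30 genes. A gene entered where the array annotation paired a probe set with that symbol alone, and the probe set with the highest mean over all 36 samples stood for the gene. On this rule 26 of the 30 genes were measured, out of 14217 genes named on the array; Hmgcs1, Npc1, Npc1l1 and Soat2 were not analysed here. The measured genes were 17 of the 18 listed synthesis enzymes, 4 genes of SREBP2 control and 5 of transport, uptake and esterification.

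The 36 samples were livers of male Sprague Dawley rats in 6 groups of 6, with 1 one-colour Affymetrix array per sample. Every rat was 7 weeks old at the start and was dosed by gavage on 5 days with corn oil, which held 0.05 mg/kg, 0.54 mg/kg, 5.41 mg/kg, 54.1 mg/kg or 541 mg/kg of the flame retardant hexachlorocyclopentadienyl-dibromocyclooctane (HCDBCO) or, in the vehicle group, none. Liver was taken 1 day after the last dose. The design asks which transcripts each dose changes against vehicle. Levels below are the deposited log2 values, differences are on the log2 scale with limma's standard error, and a gene passed where limma's p, adjusted over all 31042 probe sets, was under a false discovery rate (FDR) of 5%. Nothing in the labels ties samples to numbered animals, so the p-values rest on the spread among these samples alone, which may be partly technical. Where animals are counted below, each stands for 1 sample.

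Hepatocytes build cholesterol from acetyl-CoA through mevalonate, isoprenoid units, squalene and lanosterol. When membranes of the endoplasmic reticulum hold little sterol, SCAP escorts SREBP2 to the Golgi, where it is cut, and the freed fragment switches on nearly every enzyme of the route; INSIG proteins hold SCAP back when sterol is plentiful. Cholesterol that is not needed leaves the hepatocyte into bile through ABCG5 and ABCG8, transporter subunits that work only as a pair and whose genes respond to the sterol sensor LXR.

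Tissue identity followed the label. The hepatocyte markers Alb and Ttr averaged 14.7 and 14.3, and the summed level of 7 of 8 listed hepatocyte markers lay between 16.85 and 16.91 in vehicle, 16.85 and 16.89 at 54.1 mg/kg, and 16.8 and 16.87 at 541 mg/kg. The array of 54.1 mg/kg replicate 5 had an upper quartile of 6.94, against 7.03 to 7.13 in the 35 others. The 3′ minus 5′ signal of beta-actin, a sign of RNA quality, ran from 0.963 to 1.29.

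The genes of the exporter pair lie head to head on chromosome 6. In RefSeq (rat assembly GRCr8) the Abcg5 start is at 15717936 on the plus strand and the Abcg8 start at 15717730 on the minus strand, with 205 bases between them, so that their promoter windows (250 bases before to 50 after a start) overlap by 295 bases. The shared window is shown because both genes had the largest differences of the list. Capitals mark a CCAAT box, the binding site of NF-Y, on either strand. The window chr6:15717686-15717985, plus strand, is printed on the next line.
Abcg5 and Abcg8: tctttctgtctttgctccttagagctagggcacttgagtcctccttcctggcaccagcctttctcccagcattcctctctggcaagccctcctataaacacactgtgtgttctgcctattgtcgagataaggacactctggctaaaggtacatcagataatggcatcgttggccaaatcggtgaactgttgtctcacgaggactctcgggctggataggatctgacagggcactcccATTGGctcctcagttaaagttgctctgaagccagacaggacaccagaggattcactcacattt
Its only CCAAT box is read on the minus strand. The box as printed, ATTGG, begins at -13 from the Abcg5 start. Read on the minus strand, as CCAAT, it begins at -197 from the Abcg8 start, which is the opposite end of the box.

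Promoters of 3 other genes are shown for comparison: Nsdhl, the only gene to pass against vehicle, and Msmo1 and Srebf2, the only ones with the core of a sterol regulatory element, searched as TCACNCCA. Capitals mark that core and CCAAT boxes on either strand. The windows are chrX:155817110-155817409, chr16:29746863-29747162 and chr7:115543057-115543356, all on the plus strand of GRCr8.
Nsdhl: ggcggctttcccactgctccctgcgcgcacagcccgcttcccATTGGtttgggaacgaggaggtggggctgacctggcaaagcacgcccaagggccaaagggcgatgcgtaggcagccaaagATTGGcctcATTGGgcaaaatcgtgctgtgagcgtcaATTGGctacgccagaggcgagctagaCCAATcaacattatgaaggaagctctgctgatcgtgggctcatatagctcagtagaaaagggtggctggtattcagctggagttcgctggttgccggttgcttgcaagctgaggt
Msmo1: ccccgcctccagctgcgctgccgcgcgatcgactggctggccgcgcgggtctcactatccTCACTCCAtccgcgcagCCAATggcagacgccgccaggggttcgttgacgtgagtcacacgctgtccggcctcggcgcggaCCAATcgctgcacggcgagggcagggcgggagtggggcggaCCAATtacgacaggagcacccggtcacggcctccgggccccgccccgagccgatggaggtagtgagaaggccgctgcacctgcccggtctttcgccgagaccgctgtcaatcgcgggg
Srebf2: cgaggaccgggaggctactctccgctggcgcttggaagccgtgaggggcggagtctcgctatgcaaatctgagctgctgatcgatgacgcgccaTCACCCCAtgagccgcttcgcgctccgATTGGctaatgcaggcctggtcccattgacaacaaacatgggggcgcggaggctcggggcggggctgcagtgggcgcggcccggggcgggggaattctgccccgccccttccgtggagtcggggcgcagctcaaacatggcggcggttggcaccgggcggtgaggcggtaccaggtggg
The core begins at -190 in Msmo1 and at -156 in Srebf2. Nsdhl holds 5 CCAAT boxes and Msmo1 holds 3.

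RefSeq gave a promoter for 21 of the 26 measured genes. CCAAT on either strand was in 17 of these 21, and in 11 of the 14 synthesis enzymes among them, against 37.5% of 33469 promoters of the same length. Abcg5 and Abcg8 count separately in the 17, although both hold the same single box of their shared window. The Sp1 box GGGCGG was in 16 of 21 against 33.1%, and neither Abcg5, Abcg8 nor Nsdhl was among the 16. TCACNCCA was in 2 of 21 against 3.89% of all promoters, and the longer TCACNCCAC in none against 1.12%. The LXR direct repeat, AGGTCA repeated with any 4 letters between, was in none of the 21 and in 0.00598% of all. Neither of CCAAT and GGGCGG contains the other, whereas each TCACNCCAC contains a TCACNCCA. A match describes letters in this window only.

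Abcg5 and Abcg8 were lower at the 3 highest doses. The fall over the dose order passed the FDR for both genes, by 0.20 ± 0.04 per dose step for Abcg5 (adjusted p = 0.00807) and by 0.25 ± 0.05 for Abcg8 (adjusted p = 0.0145). These were 2 of the 26 genes, where 0.374% of all probe sets fell and 0.341% rose in the same test; no listed gene rose.

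Abcg5 lay at 8.32, 8.75 and 9.27 (lowest, median and highest of 6) in vehicle, at 8.35, 8.64 and 8.87 at 0.05 mg/kg, and at 8.18, 8.70 and 9.39 at 0.54 mg/kg. At 5.41 mg/kg the values were 7.78, 8.04 and 8.27, at 54.1 mg/kg 7.05, 7.43 and 8.87, and at 541 mg/kg 7.24, 8.13 and 8.52. The 3 low groups overlapped widely. All 6 samples at 5.41 mg/kg lay below every vehicle sample, which 0.0548% of all probe sets also did in that comparison. At 54.1 mg/kg 4 samples lay between 7.05 and 7.47, below every sample of the other groups except the 7.24 of 541 mg/kg replicate 2, while replicates 5 and 6 stood at 8.42 and 8.87, within the vehicle range.

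Abcg8, the partner subunit, was dimmer and followed the same order. It lay at 6.61, 7.47 and 7.79 in vehicle, 6.37, 7.12 and 7.52 at 0.05 mg/kg and 6.57, 7.20 and 8.15 at 0.54 mg/kg. From there it went to 6.08, 6.40 and 6.82 at 5.41 mg/kg, 5.12, 5.78 and 7.52 at 54.1 mg/kg, and 5.08, 6.51 and 6.95 at 541 mg/kg. Again 54.1 mg/kg replicate 6 was the high sample, at 7.52, and 541 mg/kg replicate 2 the low one. The values at 5.41, 54.1 and 541 mg/kg overlapped those of vehicle.

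Against vehicle alone neither gene passed at any dose. Abcg5 differed by -0.18, -0.06, -0.76, -1.08 and -0.74 in order of dose, with adjusted p = 0.0575 at 54.1 mg/kg and 0.223 at 541 mg/kg in limma's fit; at 54.1 mg/kg the level was 2.12-fold lower, with a 95% interval of the difference from -1.56 to -0.61. Abcg8 differed by -0.34, -0.08, -0.94, -1.33 and -1.0, with adjusted p = 0.0936 and 0.218, and was 2.51-fold lower at 54.1 mg/kg (interval -1.96 to -0.70). At 541 mg/kg all 6 samples of each gene were below the vehicle mean, and at 54.1 mg/kg 5 of 6.

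The value at 54.1 mg/kg turned on a few samples. Without 54.1 mg/kg replicate 6, Abcg5 fell by 1.32 (adjusted p = 0.0065) and Abcg8 by 1.62 (adjusted p = 0.00887). Without replicate 5, whose array stood apart, the differences were -1.22 (adjusted p = 0.0234) and -1.44 (adjusted p = 0.0619). Without vehicle replicate 4, the lowest vehicle sample, they were -1.18 (adjusted p = 0.0469) and -1.48 (adjusted p = 0.0554). Over the 12 samples left out in turn, adjusted p ran from 0.0065 to 0.189 for Abcg5 and from 0.00887 to 0.217 for Abcg8. Of these 12 fits 3 passed for Abcg5 and 1 for Abcg8. The difference ran from -1.32 to -0.95 for Abcg5 and from -1.62 to -1.14 for Abcg8. With the 18 samples of vehicle, 0.05 and 0.54 mg/kg as reference, a choice made after the data were seen, the differences at 54.1 mg/kg were -1.0 (adjusted p = 0.0199) and -1.19 (adjusted p = 0.0465), where 0.0838% of all probe sets passed in either direction. Against the same 18 samples neither gene passed at 5.41 mg/kg or at 541 mg/kg. At 541 mg/kg limma's adjusted p was 0.145 for Abcg5 and 0.149 for Abcg8.

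The trend passed for both genes in all 36 fits that left out 1 sample. Without the 541 mg/kg group it passed for Abcg5 (adjusted p = 0.0276) but not for Abcg8 (adjusted p = 0.0512), and without the 54.1 mg/kg group again for Abcg5 (adjusted p = 0.0284) but not for Abcg8 (adjusted p = 0.0634). The levels at 541 mg/kg were 0.34 ± 0.23 higher than at 54.1 mg/kg for Abcg5 and 0.32 ± 0.31 for Abcg8, neither of which passed (both adjusted p = 0.999). In whole liver, fewer cells that carry a transcript and less of it per cell cannot be told apart.

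**Figure D1:**
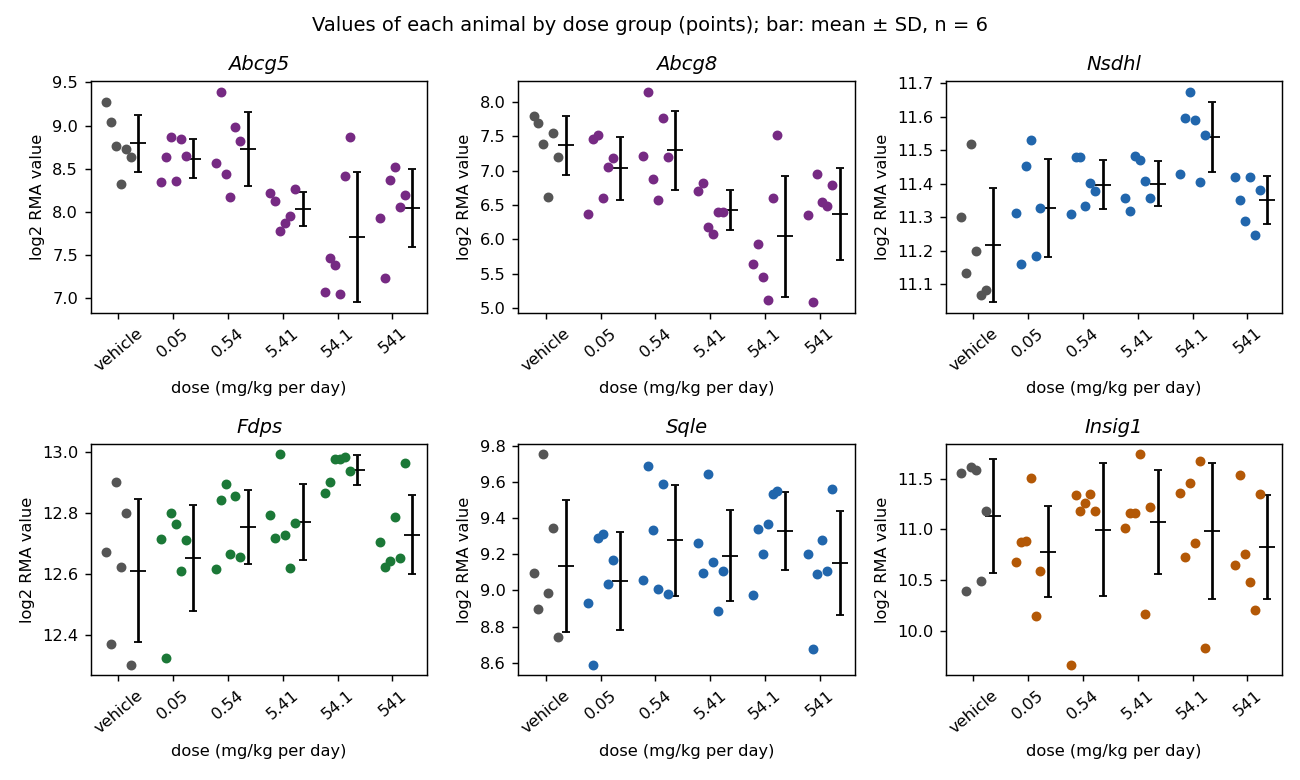
Log2 values of Abcg5, Abcg8, Nsdhl, Fdps, Sqle and Insig1 (y axis, a scale of its own in each panel) in the 6 dose groups (x axis, mg/kg per day); points are samples, and bars are the mean ± SD of 6. Abcg5 and Abcg8 sit lower from 5.41 mg/kg up, with 54.1 mg/kg replicate 6 at 8.87 and 7.52, whereas Sqle and Insig1 spread over similar ranges in every group.

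The first enzymes of the route, from acetyl-CoA to squalene, numbered 7, and none passed against vehicle at any dose. Fdps, which joins isoprenoid units into farnesyl diphosphate, had the largest difference, 0.33 ± 0.08 at 54.1 mg/kg (adjusted p = 0.141). It lay at 12.30, 12.65 and 12.90 in vehicle, 12.33, 12.71 and 12.80 at 0.05 mg/kg, 12.62, 12.75 and 12.89 at 0.54 mg/kg and 12.62, 12.75 and 12.99 at 5.41 mg/kg. At 54.1 mg/kg the 6 samples were close together at 12.86, 12.96 and 12.98, and at 541 mg/kg they were at 12.62, 12.68 and 12.96. The lowest sample at 54.1 mg/kg stood above 5 of the 6 vehicle samples, and the groups overlapped.

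Pmvk, phosphomevalonate kinase, was at 9.28, 9.52 and 10.04 in vehicle, 9.29, 9.44 and 9.77 at 0.05 mg/kg and 9.39, 9.65 and 9.86 at 0.54 mg/kg. It was at 9.46, 9.60 and 9.72 at 5.41 mg/kg, 9.52, 9.82 and 9.94 at 54.1 mg/kg and 9.52, 9.64 and 9.86 at 541 mg/kg. Its highest sample of all was a vehicle sample, and its difference at 54.1 mg/kg was 0.19 ± 0.10 (adjusted p = 0.571). Acat2, which makes acetoacetyl-CoA, Mvk, mevalonate kinase, Mvd, which makes isopentenyl diphosphate, and Fdft1, squalene synthase, differed by 0.17 to 0.24 at 54.1 mg/kg. Idi1, which turns isopentenyl into dimethylallyl diphosphate, differed by -0.02 there. Another Idi1 probe set gave 0.03, and neither value passed.

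Among the 10 enzymes from squalene to cholesterol, Nsdhl rose at 54.1 mg/kg, by 0.32 ± 0.07 (1.25-fold, adjusted p = 0.0381). Nsdhl is a sterol dehydrogenase that helps strip methyl groups from lanosterol. It was 1 gene of 26, in a comparison in which 0.0741% of all probe sets passed in either direction and 0.0419% rose. Its values were 11.07, 11.17 and 11.52 in vehicle, 11.16, 11.32 and 11.53 at 0.05 mg/kg and 11.31, 11.39 and 11.48 at 0.54 mg/kg. They were 11.32, 11.38 and 11.48 at 5.41 mg/kg, 11.41, 11.57 and 11.68 at 54.1 mg/kg and 11.25, 11.37 and 11.42 at 541 mg/kg. Vehicle replicate 3, at 11.52, lay inside the range at 54.1 mg/kg, and the 5 other vehicle samples lay below it.

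The call for Nsdhl was a narrow one. A further Nsdhl probe set rose less, at 0.23 ± 0.07, and missed the threshold (adjusted p = 0.216). Of the 12 fits that left out 1 vehicle or 54.1 mg/kg sample, 3 kept the call, and adjusted p ran from 0.00504 without vehicle replicate 3 to 0.128 without vehicle replicate 5. The difference itself ran only from 0.29 to 0.38 in these fits. Against the 18 samples of vehicle, 0.05 and 0.54 mg/kg, Nsdhl differed by 0.23 ± 0.05 at 54.1 mg/kg and did not pass (adjusted p = 0.113). At 541 mg/kg Nsdhl differed from vehicle by 0.13 ± 0.07 (adjusted p = 0.557), and from 54.1 mg/kg by -0.19 ± 0.07 (adjusted p = 0.968).

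The other enzymes of these later steps had smaller differences at 54.1 mg/kg, though not at every dose: at 541 mg/kg that of Nsdhl, 0.13, was below those of Dhcr7 (0.19), Sc5d (0.15), Lss (0.15) and Msmo1 (0.14). At 541 mg/kg another Lss probe set gave 0.001, the further Nsdhl probe set 0.03, and further Sc5d probe sets 0.11 and 0.15. Sqle, squalene epoxidase, a step that limits flux through the route, was at 8.74, 9.04 and 9.75 in vehicle, 8.59, 9.10 and 9.31 at 0.05 mg/kg and 8.98, 9.20 and 9.69 at 0.54 mg/kg. It was at 8.89, 9.13 and 9.64 at 5.41 mg/kg, 8.98, 9.35 and 9.55 at 54.1 mg/kg and 8.68, 9.15 and 9.56 at 541 mg/kg. Every group spanned much of the same range, and the difference was 0.19 ± 0.16 at 54.1 mg/kg and 0.02 ± 0.16 at 541 mg/kg.

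Cyp51, the lanosterol demethylase, was at 11.79, 12.05 and 12.42 in vehicle, 11.90, 12.04 and 12.38 at 0.05 mg/kg and 12.06, 12.11 and 12.50 at 0.54 mg/kg. It was at 11.92, 12.11 and 12.28 at 5.41 mg/kg, 11.93, 12.29 and 12.45 at 54.1 mg/kg and 11.94, 12.22 and 12.38 at 541 mg/kg. Its difference at 54.1 mg/kg was 0.20 ± 0.10 (adjusted p = 0.542).

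Ebp, the sterol isomerase, was at 10.87, 10.94 and 11.41 in vehicle, 10.91, 11.03 and 11.25 at 0.05 mg/kg and 10.91, 11.11 and 11.42 at 0.54 mg/kg. It was at 10.87, 11.05 and 11.14 at 5.41 mg/kg, 11.03, 11.20 and 11.37 at 54.1 mg/kg and 10.86, 10.99 and 11.22 at 541 mg/kg. The rise of its median at 54.1 mg/kg was not seen at 541 mg/kg, where the difference from vehicle was -0.02 ± 0.09 against 0.19 ± 0.09 (adjusted p = 0.976 and 0.52).

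Sc5d, the desaturase just before the last reduction, was at 10.93, 11.0 and 11.34 in vehicle, 10.94, 11.15 and 11.25 at 0.05 mg/kg and 10.96, 11.19 and 11.26 at 0.54 mg/kg. It was at 10.99, 11.09 and 11.20 at 5.41 mg/kg, 11.06, 11.22 and 11.38 at 54.1 mg/kg and 11.02, 11.25 and 11.33 at 541 mg/kg. Its differences of 0.17 ± 0.07 and 0.15 ± 0.07 at the 2 highest doses did not pass (adjusted p = 0.432 and 0.499). Lss, Tm7sf2, Msmo1, Hsd17b7 and Dhcr7, the enzymes of lanosterol cyclisation, sterol reduction, demethylation and the final reduction, differed by 0.01 to 0.21 at 54.1 mg/kg and -0.03 to 0.19 at 541 mg/kg.

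As a list, 16 of the 17 synthesis enzymes had a higher mean at 54.1 mg/kg than in vehicle, with a median difference of 0.19, where 53.6% of all 14217 genes were higher and their median was 0.0082. At 541 mg/kg 14 of 17 were higher with a median of 0.083, against 53.4% and 0.0074 for all genes. At 0.54 mg/kg all 17 were higher with a median of 0.14, at 5.41 mg/kg 13 with 0.037, and at 0.05 mg/kg 8 with -0.017, where 49.1%, 50.8% and 50.4% of all genes were higher. With 1 sample left out the median ran from 0.14 to 0.28 at 54.1 mg/kg, 0.080 to 0.21 at 0.54 mg/kg and 0.037 to 0.18 at 541 mg/kg, and it changed sign at 5.41 mg/kg (-0.0091 to 0.12) and at 0.05 mg/kg (-0.090 to 0.075). The 5 comparisons share the vehicle samples, and the enzymes vary together between animals, as described below, so the counts are not independent pieces of evidence.

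The mean of the 17 enzymes per sample showed how small these shifts were beside the spread between animals. It lay at 10.15, 10.35 and 10.82 in vehicle, 10.06, 10.35 and 10.59 at 0.05 mg/kg and 10.28, 10.47 and 10.80 at 0.54 mg/kg. At 5.41 mg/kg it was at 10.32, 10.40 and 10.59, at 54.1 mg/kg at 10.31, 10.56 and 10.79 and at 541 mg/kg at 10.23, 10.48 and 10.72. The highest sample of all was vehicle replicate 3, and every dose group overlapped vehicle. The vehicle samples alone spanned 1.60-fold, while the mean at 54.1 mg/kg was 0.18 above that of vehicle.

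**Figure D2:**
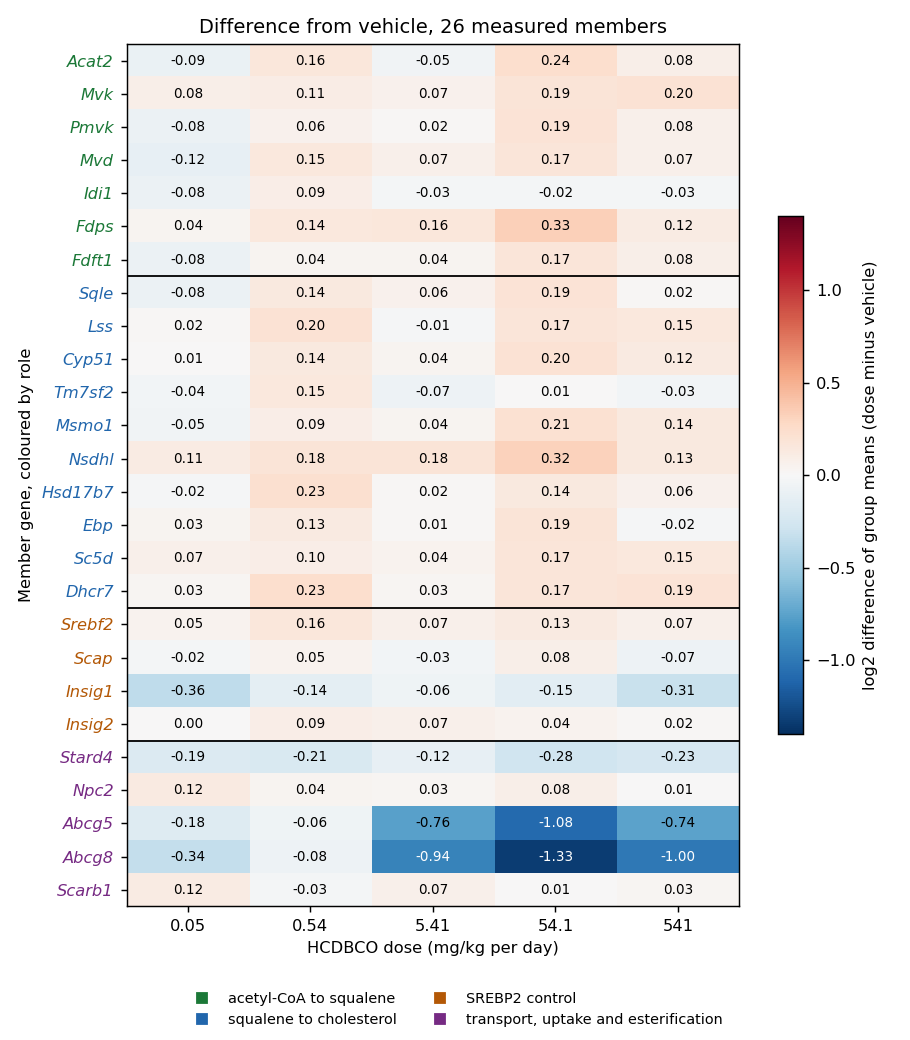
Log2 difference of the group means from vehicle (colour and printed value) for the 26 measured genes (rows, coloured by role) at the 5 doses (columns, mg/kg per day), n = 6 per group. The blue cells of Abcg5 and Abcg8 from 5.41 mg/kg up reach -1.08 and -1.33, and the synthesis enzymes stay between -0.12 and 0.33.

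The genes that control SREBP2 did not pass in any comparison. Srebf2, which encodes SREBP2 itself, was at 7.85, 7.93 and 8.28 in vehicle, 7.83, 8.02 and 8.31 at 0.05 mg/kg and 7.90, 8.17 and 8.39 at 0.54 mg/kg. It was at 7.85, 8.06 and 8.41 at 5.41 mg/kg, 7.92, 8.09 and 8.45 at 54.1 mg/kg and 7.75, 8.13 and 8.30 at 541 mg/kg. The groups overlapped throughout, and its differences were 0.13 ± 0.11 at 54.1 mg/kg and 0.07 ± 0.11 at 541 mg/kg. Scap differed by 0.08 and -0.07 at these doses, and Insig2, the INSIG form known in liver for its response to fasting, by 0.04 and 0.02.

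Insig1, itself a target of SREBP2 and part of its feedback, was among the most variable genes on the array. It was at 10.39, 11.37 and 11.61 in vehicle, 10.14, 10.78 and 11.51 at 0.05 mg/kg and 9.66, 11.23 and 11.35 at 0.54 mg/kg. It was at 10.16, 11.16 and 11.74 at 5.41 mg/kg, 9.83, 11.11 and 11.68 at 54.1 mg/kg and 10.20, 10.70 and 11.53 at 541 mg/kg. The sample 0.54 mg/kg replicate 1, at 9.66, fell far below the rest of its group, at 11.2 to 11.3. The SD within groups, 0.57, was above that of 99.3% of all genes. Abcg8 (0.58) and Abcg5 (0.44) were about as variable, above 99.4% and 98.5%. The differences of Insig1 from vehicle ran from -0.36 to -0.06, each with a standard error of 0.30, and none passed.

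In the transport group, the remaining genes did not pass either. Scarb1, the receptor that takes up cholesteryl ester from HDL, was at 8.05, 8.16 and 8.40 in vehicle, 8.08, 8.37 and 8.59 at 0.05 mg/kg and 8.00, 8.16 and 8.39 at 0.54 mg/kg. It was at 8.20, 8.27 and 8.38 at 5.41 mg/kg, 7.89, 8.29 and 8.44 at 54.1 mg/kg and 8.01, 8.26 and 8.39 at 541 mg/kg. Its differences at the 2 highest doses were 0.01 ± 0.09 and 0.03 ± 0.09, with no order by dose. Stard4, a cytosolic sterol carrier, differed by -0.28 ± 0.12 at 54.1 mg/kg (adjusted p = 0.486) and -0.23 ± 0.12 at 541 mg/kg (adjusted p = 0.59), and by -0.19 already at 0.05 mg/kg. Of its other probe sets, one gave -0.18 at 54.1 mg/kg and -0.19 at 541 mg/kg (adjusted p = 0.501 and 0.454), and another -0.04 and -0.05 (adjusted p = 0.951 and 0.94). Npc2, which hands cholesterol out of the lysosome, differed by 0.08 and 0.01.

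Over the whole list, limma called no gene at 0.05, 0.54, 5.41 or 541 mg/kg, and none between 541 and 54.1 mg/kg. At an unadjusted p under 0.05 the counts were 0, 2, 3 and 3 of 26 at these doses, where 3.02%, 4.18%, 4.83% and 9.07% of all probe sets lay under 0.05; between the 2 highest doses the count was 3, against 4.76%. The FDR passed 0% of all probe sets at the 3 lowest doses, 0.155% at 541 mg/kg and 0.00322% between the 2 highest doses. An F-test over all 6 group means called no listed gene and 0.0999% of all probe sets. Its smallest p-values were those of Abcg5 (8.73e-05, adjusted p = 0.07), Abcg8 (0.000288, adjusted p = 0.138), Nsdhl (0.0014, adjusted p = 0.287) and Fdps (0.00972, adjusted p = 0.565), and these 4 were the genes under an unadjusted 0.05, where 5.99% of all probe sets lay. At 54.1 mg/kg 8 of 26 genes had an unadjusted p under 0.05 against 9.2% of all probe sets, and in the trend 6 against 12%, with 0.715% past the FDR there in either direction.

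No marker of another cell type passed at any dose. The summed level of 6 of 8 Kupffer cell markers ran from 11.01 to 11.93 in vehicle, 10.86 to 12.03 at 54.1 mg/kg and 11.12 to 11.80 at 541 mg/kg. That of 5 of 6 sinusoidal endothelial markers ran from 11.05 to 11.47, 11.15 to 11.43 and 11.01 to 11.22, and at 541 mg/kg all 5 were lower than in vehicle, 3 of them at an unadjusted p under 0.05. At that dose 53.4% of all genes were higher, and 9.07% of all probe sets lay under 0.05. The summed level of 7 stellate cell markers ran from 11.46 to 11.86, 11.37 to 11.73 and 11.24 to 12.02, and that of 4 of 5 bile duct markers from 8.87 to 9.39, 9.06 to 9.34 and 9.12 to 9.52. Abcg5 and Abcg8 are also made by enterocytes; of 6 of 7 enterocyte markers, Apob and Apoa4 are liver genes too, averaging 13.5 and 11.7. The other 4 averaged 5.91 (Fabp2), 5.33 (Alpi), 4.13 (Vil1) and 2.65 (Si), where array medians ran from 5.06 to 5.16, so that Fabp2 and Alpi were above the medians and Vil1 and Si below. No marker was at 0, since the scale has none. The part of other cell types in the differences was not tested.

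The synthesis enzymes varied together between animals of a group. With each value taken as its deviation from the group mean, all 136 pairs of the 17 synthesis enzymes correlated positively over the 36 animals, with a median Pearson r of 0.72 and a range of 0.36 to 0.90. The median over all pairs of the 14217 genes was -0.001, and 0.0423% of those pairs reached the enzymes' median. Such close variation was not particular to the enzymes. Among the cell type lists the median r was 0.91 for Kupffer cell and 0.69 for bile duct markers. It was 0.47 for sinusoidal endothelial, 0.27 for stellate cell, 0.12 for hepatocyte and 0.06 for enterocyte markers. The fatty acid synthesis genes had a median r of 0.29 with each other. These r are descriptions, since all pairs share the same 36 arrays, and the shared variation may be partly technical. Among the enzymes, Mvd and Lss had the highest r, 0.90, and Fdft1 and Tm7sf2 the lowest, 0.36.

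The pairs were as close within the early steps (median r 0.74 of 21 pairs) as within the late ones (0.73 of 45). The first principal component of the 17 standardised enzymes took up 72.9% of their variance and the second 7.04%. By median r with the 16 other enzymes, Sqle (0.81) and Lss (0.81) stood at the top, then Mvd (0.79) and Ebp (0.77), and Tm7sf2 (0.63) and Nsdhl (0.60) at the bottom. Nsdhl was thus the enzyme with the only call and the one least tied to the others. It also had the smallest SD within groups of the 17, 0.11, against a median of 0.20. The part of this small spread in either trait was not tested.

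**Figure D3:**
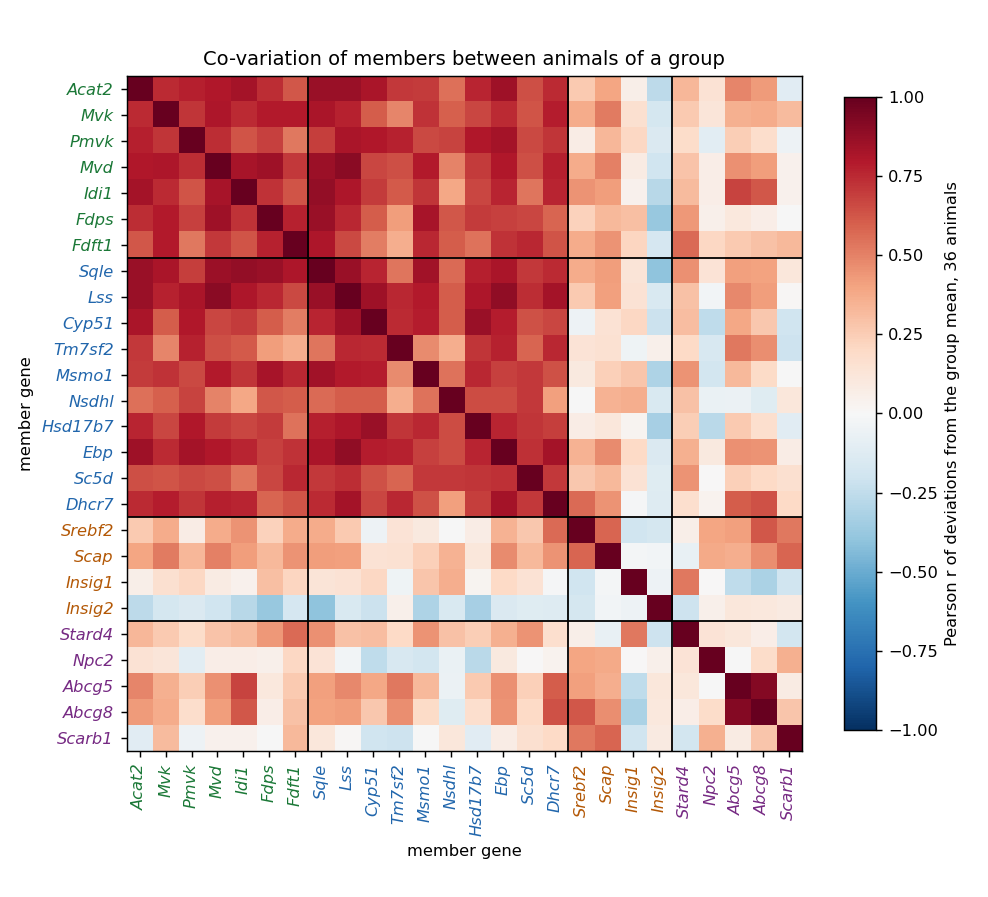
Pearson r between the deviations of 26 genes from their group means over 36 animals (colour, -1 to 1), with genes in the same order on both axes and lines between roles. The dark red block holds the 17 enzymes, with r from 0.36 to 0.90, and the pair Abcg5 and Abcg8 stands out at 0.92, while Insig1, Npc2 and Scarb1 are pale against the block.

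Sample by sample, the enzymes often lay on the same side of their group means. In 9 of the 36 animals all 17 enzymes lay on the same side of their group mean, and in 20 at least 15 did. Vehicle replicate 3 had all 17 above, with a mean level 1.36-fold that of its group, and vehicle replicate 2 had all 17 below, at 0.856-fold. The range of the mean over its 6 animals was 1.60-fold in vehicle, 1.44-fold at 0.05 mg/kg, 1.44-fold at 0.54 mg/kg, 1.20-fold at 5.41 mg/kg, 1.39-fold at 54.1 mg/kg and 1.41-fold at 541 mg/kg.

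Within single groups of 6 the median r was 0.85 in vehicle, 0.77 at 0.05 mg/kg, 0.84 at 0.54 mg/kg, 0.44 at 5.41 mg/kg, 0.65 at 54.1 mg/kg and 0.74 at 541 mg/kg. The group with the lowest median, 5.41 mg/kg, was also the one whose enzyme mean had the smallest range. With 6 animals each, these medians were not compared by a test. Over all animals the median stayed between 0.69 and 0.76 when any single group was left out.

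**Figure D4:**
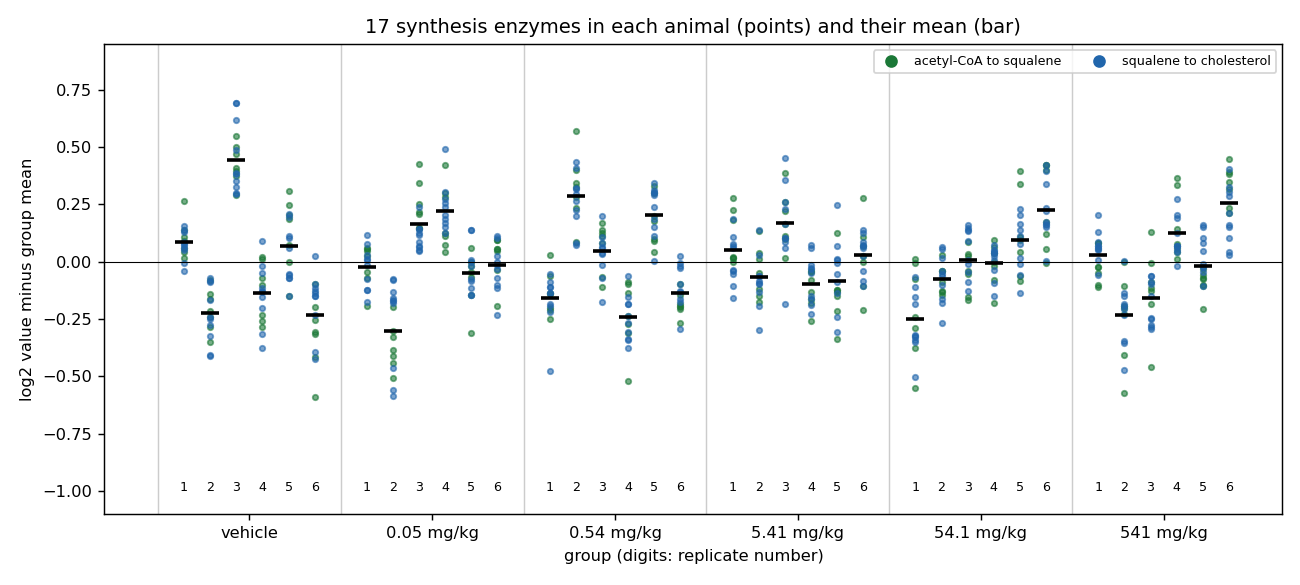
Deviation of each of the 17 synthesis enzymes from its group mean (points, log2; green for the steps to squalene, blue for the later ones) in every animal, with their mean as a bar; animals are ordered by group and replicate number. In vehicle replicate 3 all 17 points lie above 0, in vehicle replicate 2 all lie below, and the bars lie closest together at 5.41 mg/kg.

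Sqle took the place of Hmgcs1 as the index enzyme after the data were seen. Its median r with the other enzymes was the highest of the 17, so its relations are closer than those of a typical enzyme. In all, 28 relations were computed with permutation p-values over 100000 shuffles of animals within groups, adjusted over the 28 by Benjamini-Hochberg. All 16 other enzymes followed Sqle, with r from 0.53 for Tm7sf2 to 0.88 for Idi1, Spearman rho from 0.52 to 0.90 and adjusted permutation p of at most 0.00369. The smallest p these shuffles can give is 1e-05, and several enzymes, Idi1, Acat2 and Lss among them, reached it. Without the 2 animals farthest from the median of Sqle, r ran from 0.43 for Nsdhl to 0.90 for Idi1.

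The control genes followed Sqle less closely. Srebf2 had r = 0.37 and rho = 0.35 (permutation p = 0.0384 and 0.0522; adjusted p = 0.0467 and 0.0635), and Scap r = 0.41 and rho = 0.39 (adjusted permutation p = 0.0302 and 0.0402). Insig2 ran the other way, with r = -0.40 and rho = -0.42 (adjusted permutation p = 0.0302 and 0.0244). For Insig1, r was 0.13 and rho 0.10 (adjusted permutation p = 0.514 and 0.597), so no relation was measured between its wide spread and Sqle. Without the 2 farthest animals r was 0.43 for Srebf2, 0.42 for Scap, -0.43 for Insig2 and 0.07 for Insig1.

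Among the transport genes, Stard4 had r = 0.45 and rho = 0.45 with Sqle (adjusted permutation p = 0.0117 and 0.0163). Abcg5 had r = 0.41 and rho = 0.39 (adjusted permutation p = 0.0192 and 0.0357), and Abcg8 r = 0.41 and rho = 0.41 (adjusted permutation p = 0.0238 and 0.0282). Npc2 (r = 0.14) and Scarb1 (r = 0.12) did not pass. Without the 2 farthest animals r was 0.47, 0.52 and 0.50 for Stard4, Abcg5 and Abcg8. The relation of Sqle with the exporters was not the same in every group, each of 6 animals and so described without a test. For Abcg5, r was 0.03 in vehicle, 0.06 at 0.05 mg/kg and -0.41 at 5.41 mg/kg, against 0.74 at 0.54 mg/kg, 0.79 at 54.1 mg/kg and 0.74 at 541 mg/kg. For Abcg8, r was 0.17, -0.15 and -0.29 in the former 3 groups and 0.80, 0.65 and 0.80 in the latter. The pooled values therefore rest on the groups at 0.54, 54.1 and 541 mg/kg.

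Abcg5 and Abcg8 themselves had r = 0.92 and rho = 0.92 (raw permutation p = 1e-05, adjusted p = 2.33e-05 and 2.8e-05), and r = 0.88 without the 2 farthest animals. This was higher than any pair of enzymes, and within single groups r ran from 0.72 at 5.41 mg/kg to 0.97 at 0.54 mg/kg. The deviations included 54.1 mg/kg replicate 6, high for both, and 541 mg/kg replicate 2, low for both. The beta-actin 3′ minus 5′ signal had r = -0.23 and rho = -0.21 with Sqle (adjusted permutation p = 0.233 and 0.303) and r = 0.09 and rho = 0.05 with Abcg5 (0.675 and 0.778).

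**Figure D5:**
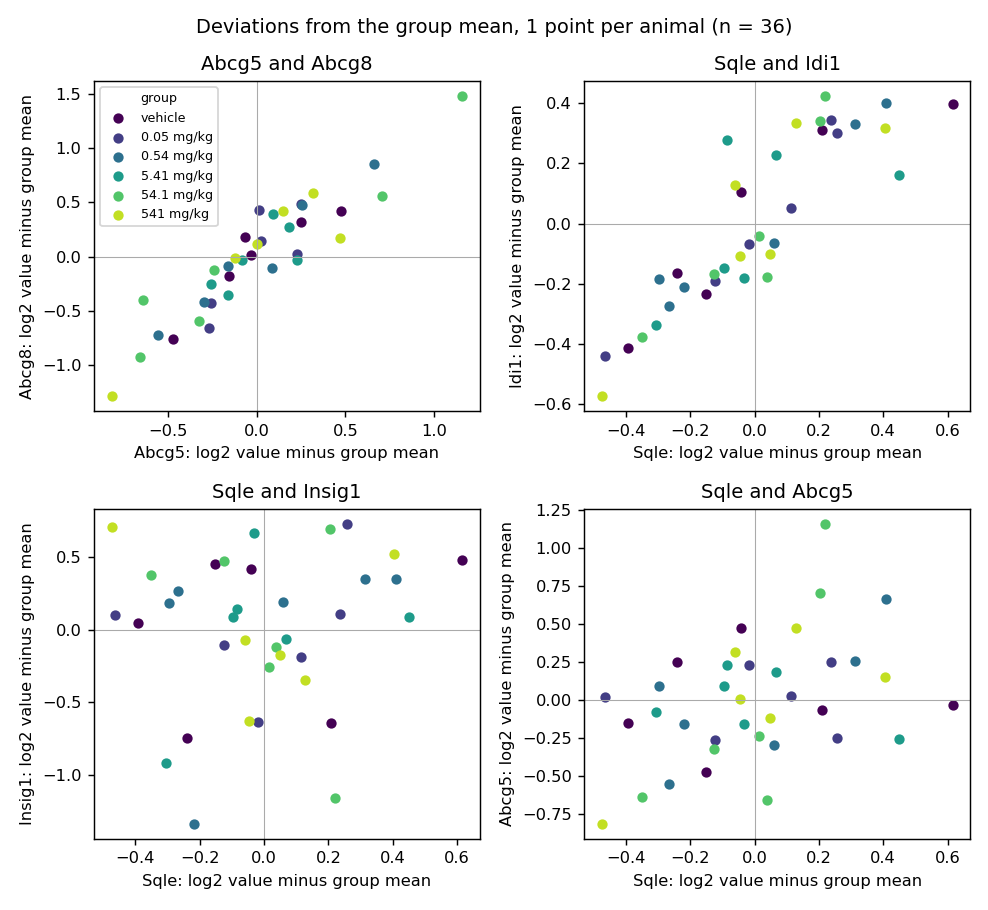
Deviations from the group mean (log2) for 4 pairs of genes, 1 point per animal, coloured by group, n = 36. Abcg5 against Abcg8 (r = 0.92) and Sqle against Idi1 (r = 0.88) form narrow bands, Sqle against Abcg5 (r = 0.41) a loose one, and Sqle against Insig1 (r = 0.13) none.

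Genes outside the list that varied most closely with the mean of the enzymes are given as a description over the same 36 arrays. Acss2, which makes acetyl-CoA from acetate, had r = 0.89, Fasn, fatty acid synthase, 0.75, and Tmem97, a sterol-regulated membrane protein, 0.74. The other 7 of the 10 highest were Polr2d (0.76), Apex1 (0.75), Sf3b6, Ccdc86, Fam136a, Nifk and Ccdc59 (0.72 to 0.73). The 5 lowest were Cdh1 (-0.72), Fam210b (-0.67), Miox (-0.62), Trpc2 (-0.61) and Slc1a5 (-0.61). The 12 fatty acid synthesis genes had a median r of 0.16 with that mean, from -0.32 for Scd to 0.89 for Acss2, and the 12 clock genes one of -0.11. For 27 other genes that handle sterols or SREBPs the median was 0.01, from -0.53 for Srebf1 to 0.74 for Tmem97.

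Of 27 measured genes among 32 others that handle sterols or SREBPs, none passed at 54.1 mg/kg, at 541 mg/kg or in the trend. In limma 2, 4 and 5 had an unadjusted p under 0.05, where 9.2%, 9.07% and 12% of all probe sets did. Cyp7a1, which opens bile acid synthesis and so consumes cholesterol, had the largest differences, 1.23 ± 0.42 at 54.1 mg/kg (adjusted p = 0.333) and 1.09 ± 0.42 at 541 mg/kg (adjusted p = 0.382). Tmem97 differed by 0.20 and 0.22 (adjusted p = 0.57 and 0.516). Of the 12 fatty acid synthesis genes, Me1, the malic enzyme that supplies NADPH, rose at 54.1 mg/kg by 0.52 ± 0.11 (adjusted p = 0.0381) and over the dose order by 0.10 ± 0.02 per step (adjusted p = 0.00212). No other gene of that list passed in these tests, where 0.0419% and 0.341% of all probe sets rose. Fasn (0.40, adjusted p = 0.261), Pnpla3 (1.06, adjusted p = 0.183) and Scd (-1.15, adjusted p = 0.327) did not pass at 54.1 mg/kg. Of the 12, 8 had an unadjusted p under 0.05 in limma at 54.1 mg/kg, 4 at 541 mg/kg and 8 in the trend. At 54.1 mg/kg 10 of the 12 were higher than in vehicle, where 53.6% of all genes were. Their median difference there was 0.27, against 0.19 for the 17 cholesterol synthesis enzymes. None of 12 clock genes or 8 fasting genes passed at 54.1 mg/kg, at 541 mg/kg or in the trend. Unadjusted p was under 0.05 for 2, 0 and 2 clock genes and for 0, 3 and 3 fasting genes. The shares of all probe sets were 9.2%, 9.07% and 12%. At 541 mg/kg all 8 fasting genes were lower than in vehicle, with adjusted p from 0.0993 up, where 53.4% of all genes were higher.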

How the data were processed

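Liver RNA of 36 samples, 6 per group, was measured on 1 array each. The authors deposited log2 values made by RMA with affy, per the submitters' processing notes; versions and background settings are not given in the sources used here, and the log base was not checked against raw intensities. The table held 31099 probe sets; 57 controls were left out and 31042 tested. Array medians ran from 5.06 to 5.16. The number of arrays limits precision: the median standard error of a dose against vehicle was 0.0799.

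Group means were fitted to all samples with limma 3.58.1 in R 4.3.3 (two-sided, Benjamini-Hochberg over all probe sets, FDR 5%), with contrasts of each dose with vehicle, 541 with 54.1 mg/kg, a linear trend over dose order (scores 0 to 5) and an F-test; the fit was tested on simulated data. Correlations used deviations from group means. Of the probe sets, 20826 had 1 symbol, 436 several and 9780 none. The members and lists were chosen with earlier results of these data known. Values by group are given for genes past the FDR, the 6 smallest F-test p-values (Ebp tied) and Sqle, Cyp51, Insig1, Srebf2 and Scarb1; outside genes are the 10 highest and 5 lowest correlations with the enzyme mean and, per list, up to 3 genes. Hmgcs1 had been set as index enzyme, was not analysed here, and Sqle took its place. Promoters are RefSeq's (GRCr8). Alternatives were median centring, a filter on dim probe sets, array weights, a trended robust prior, a fit of only vehicle and the dose, the replicate number as a block, and leaving out samples or groups.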

Additional observations from a re-analysis of the deposited data

Results flagged for a closer look

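Among the 26 genes and the mean of the enzymes, tested in each group of 6, 13 of 162 tests found 1 sample far from the other 5, where chance gives about 1 in 20, or 8.1. At 0.05 mg/kg, replicate 2 was low for 3 synthesis enzymes: Mvd was at 7.56 (others 7.9 to 8.09), Fdft1 at 9.97 (others 10.4 to 10.6) and Msmo1 at 11.2 (others 11.8 to 11.9). At 54.1 mg/kg, Hsd17b7 was low in replicate 1 at 8.65 (others 9.16 to 9.38), while replicate 6 was high for Dhcr7 at 11.1 (others 10.5 to 10.7) and for Scap at 8.48 (others 8.08 to 8.2). Sc5d was high in vehicle replicate 3 at 11.3, and Scap in 5.41 mg/kg replicate 2 at 8.24.

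Insig1 was low in 0.54 mg/kg replicate 1 at 9.66 (others 11.2 to 11.3). Insig2 was low in vehicle replicate 5 at 11.5 and high in 541 mg/kg replicate 2 at 12.3. Npc2 was high in 0.54 mg/kg replicate 2 at 10.8 (others 10.6 to 10.7). The same 541 mg/kg replicate 2 was low for Abcg8 at 5.08 (others 6.36 to 6.95).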

How the results depend on the processing

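The count of listed genes past the FDR at 54.1 mg/kg, 1 as reported (Nsdhl), was 0 with each array centred on its median or with only the 12 samples of vehicle and that dose, 2 with dim probe sets left out (Nsdhl and Abcg5) and 3 with array weights (Abcg8 too). Leaving out 1 sample gave 0 to 2: 0 without vehicle replicate 1, 2, 5 or 6 or 54.1 mg/kg replicate 2, 3 or 4, and 2 without 54.1 mg/kg replicate 5 (Nsdhl and Abcg5) or 6 (Abcg5 and Abcg8). The F-test count, 0 as reported, was 1 with the dim filter, 2 with array weights and 0 to 2 with 1 sample left out (2 without 54.1 mg/kg replicate 6). The trend count of 2 was 1 without the 541 mg/kg group or, likewise, the 54.1 mg/kg group, and 2 to 3 with 1 sample left out. No listed gene passed at the other doses, or between the highest pair, under any of these alternatives. Nsdhl at 54.1 mg/kg had adjusted p = 0.0839 when centred and 0.159 in the fit of that dose and vehicle alone. The cause of these moves was not tested.

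Reversed signs were those of small differences, which included the median of the enzymes at 0.05 mg/kg and 5.41 mg/kg. Scarb1 at 54.1 mg/kg was -0.0057 with median centring. With 1 sample left out, Scarb1 ran from -0.036 to 0.074 at 54.1 mg/kg and from -0.00067 to 0.076 at 541 mg/kg, Sqle from -0.064 to 0.14 and Ebp from -0.059 to 0.060 at 541 mg/kg, and Insig1 from -0.298 to 0.083 at 54.1 mg/kg. The median correlation of the enzymes ran from 0.69 to 0.76 over its alternatives, and that with Sqle, which replaced Hmgcs1 after the data were seen, from 0.76 to 0.84.

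Samples with the same replicate number did not deviate together: over 90 pairs the mean correlation was 0.0141, from -0.26 to 0.233, so the numbers were not treated as pairing. With the replicate number as a block the counts stayed at 1 at 54.1 mg/kg, 2 in the trend and 0 in the F-test, and Abcg5 at 54.1 mg/kg had adjusted p = 0.0501.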
